A study of Homo sapiens with 12 samples.

Results

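The AP-1 and immediate early factors described here are 10 genes, chosen by name: the FOS family genes FOS, FOSB, FOSL1 and FOSL2, the JUN family genes JUN, JUNB and JUND, and EGR1, IER3 and MYC. They are 10 of the 26258 gene identifiers in the expression table, and all 10 were among the 13515 genes tested, which reached 1 CPM (counts per 1000000 reads on genes) in at least 2 libraries. FOS passed only through the 4 DMSO libraries of siY/T and siATF4 cells, and EGR1 only through the 6 DMSO libraries. The cells were HLE, a human hepatocellular carcinoma line, given a non-targeting control (siCtrl), siRNAs that deplete both YAP and TAZ (siY/T) or an siRNA that depletes ATF4 (siATF4), and cultured with the vehicle DMSO or with 5 µM of the kinase inhibitor Sorafenib (Srf). Each of the 6 groups had 2 libraries of poly(A) RNA, 12 in all. The study's methods describe biological replicates, but more of them per group than the libraries used here, and the sample labels do not say whether the libraries of a group came from separate cultures. The p-values may therefore measure only the spread between these libraries, which may be technical. The dose is the labels', and the study's text gives a different dose for its RNA sequencing.

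AP-1 is a DNA-binding dimer of basic leucine zipper proteins, in which a FOS family protein pairs with a JUN family protein, or JUN proteins pair with each other. Many of its genes, like EGR1 and IER3, are immediate early genes, whose transcription starts within minutes of a growth factor or stress signal through ERK, JNK or p38 kinases and does not need new protein. YAP and TAZ are transcriptional coactivators that bind DNA through TEAD factors and often act at enhancers together with AP-1, ATF4 is the transcription factor of the integrated stress response and can itself pair with FOS and JUN proteins, and Sorafenib inhibits RAF and several receptor kinases upstream of ERK.

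RefSeq promoter windows on GRCh38.p14, from 250 bases before to 50 bases after the start of the gene, were matched for 7 of the 10 genes (FOS, FOSB, FOSL2, JUN, JUNB, JUND and EGR1). They were searched on both strands for the AP-1 site TGANTCA, the CRE-type site TGACGTCA, the JUN-type variant TGACATCA, the TEAD site GGAATG, the ATF4-type composite site TGATGNAA and the CArG box bound by serum response factor. The 4 windows that held a match are printed, with the matches in capitals. They place EGR1, JUN and JUND, which fell or rose with the depletions or with Sorafenib below, beside FOSL2, which passed no threshold.
EGR1 (chr5:138465229-138465528, + strand): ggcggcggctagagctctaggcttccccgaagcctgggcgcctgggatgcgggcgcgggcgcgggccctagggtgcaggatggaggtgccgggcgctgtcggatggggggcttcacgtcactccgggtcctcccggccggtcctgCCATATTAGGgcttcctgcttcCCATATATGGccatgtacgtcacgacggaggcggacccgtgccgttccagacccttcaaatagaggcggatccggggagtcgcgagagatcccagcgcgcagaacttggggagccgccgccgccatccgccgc
JUN (chr1:58783998-58784297, - strand): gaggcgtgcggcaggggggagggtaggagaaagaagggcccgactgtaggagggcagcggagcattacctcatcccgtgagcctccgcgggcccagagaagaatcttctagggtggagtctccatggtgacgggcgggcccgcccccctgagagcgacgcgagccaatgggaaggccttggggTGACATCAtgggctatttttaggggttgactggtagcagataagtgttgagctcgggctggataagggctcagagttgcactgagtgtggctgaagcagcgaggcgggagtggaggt
JUND (chr19:18281573-18281872, - strand): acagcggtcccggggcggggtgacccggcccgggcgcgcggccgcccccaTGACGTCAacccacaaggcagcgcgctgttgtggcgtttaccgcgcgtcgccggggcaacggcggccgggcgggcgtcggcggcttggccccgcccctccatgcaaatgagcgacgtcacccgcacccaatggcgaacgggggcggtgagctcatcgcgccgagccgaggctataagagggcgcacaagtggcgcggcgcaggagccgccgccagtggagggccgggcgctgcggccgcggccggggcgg
FOSL2 (chr2:28392608-28392907, + strand): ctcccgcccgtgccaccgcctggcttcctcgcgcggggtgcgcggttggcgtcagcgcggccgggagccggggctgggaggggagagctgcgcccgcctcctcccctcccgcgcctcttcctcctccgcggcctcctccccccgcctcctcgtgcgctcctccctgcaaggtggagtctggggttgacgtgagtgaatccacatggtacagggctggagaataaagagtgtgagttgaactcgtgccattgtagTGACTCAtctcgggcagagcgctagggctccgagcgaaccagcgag

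The EGR1 window held 2 CArG boxes, from base -105 to -96 and from -83 to -74 relative to the start, and a CArG box was in 1.29% of the 35116 promoter windows of the RefSeq table. The JUN window held TGACATCA from base -67 to -60, a site in 2.61% of all windows, and the JUND window held TGACGTCA from base -200 to -193, a site in 1.85%. In FOSL2, TGACTCA lay just inside the transcript, from base 4 to 10, and TGANTCA was in 7.71% of all windows. TGANTCA, TGACGTCA and TGACATCA do not match the same letters, and the first 2 read the same on both strands. None of the 7 windows held GGAATG, found in 14% of all windows, or TGATGNAA, found in 3.62%, which says only that these letters are not in these windows.

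Depth ran from 41408348 to 53619732 reads on genes per library, so 1 read stood for 0.0186 to 0.0241 CPM. The 2 siY/T DMSO libraries differed most from each other, with an SD of the log2 difference over genes of 0.190, against 0.110 to 0.132 in the other groups. The siRNA targets followed the labels: YAP1 was at 277 and 280 CPM in siCtrl DMSO and at 46.6 and 57.7 CPM in siY/T DMSO libraries, and ATF4 was at 248 and 249 CPM in siCtrl DMSO and at 96.2 and 101 CPM in siATF4 DMSO libraries. With Sorafenib, ATF4 was at 484 and 492 CPM in siCtrl, 317 and 314 CPM in siY/T and 84.5 and 90.6 CPM in siATF4 libraries. WWTR1, which encodes TAZ, was at 170 and 173 CPM in siCtrl DMSO, 53.3 and 68.6 CPM in siY/T DMSO and also lower in siATF4 DMSO libraries, at 107 and 104 CPM, and its part in the siATF4 results was not tested. Of 10 hepatocyte markers, 9 stayed below 1 CPM in every library, among them ALB, at most 0.0214 CPM, and HNF4A, at most 0.0214 CPM, whereas the mesenchymal marker VIM was at 1952 CPM or more. The endothelial markers PECAM1, VWF and CDH5 and the blood markers PTPRC, CD3E and HBB stayed below 1 CPM. CD68, the remaining blood cell marker, which encodes a lysosomal protein abundant in macrophages, was at 19.8 and 21.1 CPM in the siCtrl DMSO libraries, against 75.0 and 71.9 CPM in those of siATF4 DMSO, and rose with siATF4 (log2 1.82 ± 0.09 in DMSO and 1.40 ± 0.09 in Sorafenib), and its part in the siATF4 results was not tested. In bulk RNA, fewer expressing cells and less RNA per cell cannot be told apart.

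Per kilobase of the canonical transcript, the 10 genes differed widely in level in siCtrl DMSO cells. IER3, a short-lived regulator of survival signalling, was the most abundant at 142 ± 2.09 CPM per kb (SD, n = 2), followed by FOSL1 at 122 ± 6.99, JUN at 67.4 ± 1.87 and MYC at 36.7 ± 0.19. JUND was at 20.8 ± 0.33 CPM per kb, JUNB at 10.2 ± 0.25 and FOSL2 at 9.45 ± 0.32. The classical immediate early genes stood lowest, with EGR1 at 1.78 ± 0.17, FOSB at 0.388 ± 0.0248 and FOS at 0.183 ± 0.00484 CPM per kb. The libraries of neighbours in this order did not overlap. The composition of the families was uneven. FOSL1, which encodes FRA-1, supplied 92.4% ± 0.190 of the FOS family's CPM per kb in siCtrl DMSO, 87.6% ± 1.02 in siY/T DMSO and 96.3% ± 0.0384 in siATF4 DMSO cells. With Sorafenib its share was 86.2% ± 0.430 in siCtrl, 75.3% ± 4.31 in siY/T and 95.7% ± 0.0870 in siATF4 cells. JUN supplied 68.5% ± 0.658 of the JUN family in siCtrl DMSO, 47.9% ± 0.0388 in siY/T DMSO and 78.0% ± 0.0919 in siATF4 DMSO cells, and 61.2% ± 1.43, 44.7% ± 1.03 and 82.7% ± 0.308 with Sorafenib. Under both treatments, the share of FOSL1 and that of JUN were lowest in siY/T and highest in siATF4 cells, with no overlap between libraries, and these shares were given no test of their own. The summed JUN family was at 103 ± 5.6 CPM per kb in siCtrl Srf and 52.5 ± 1.32 CPM per kb in siY/T Srf cells.

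**Figure D1:**
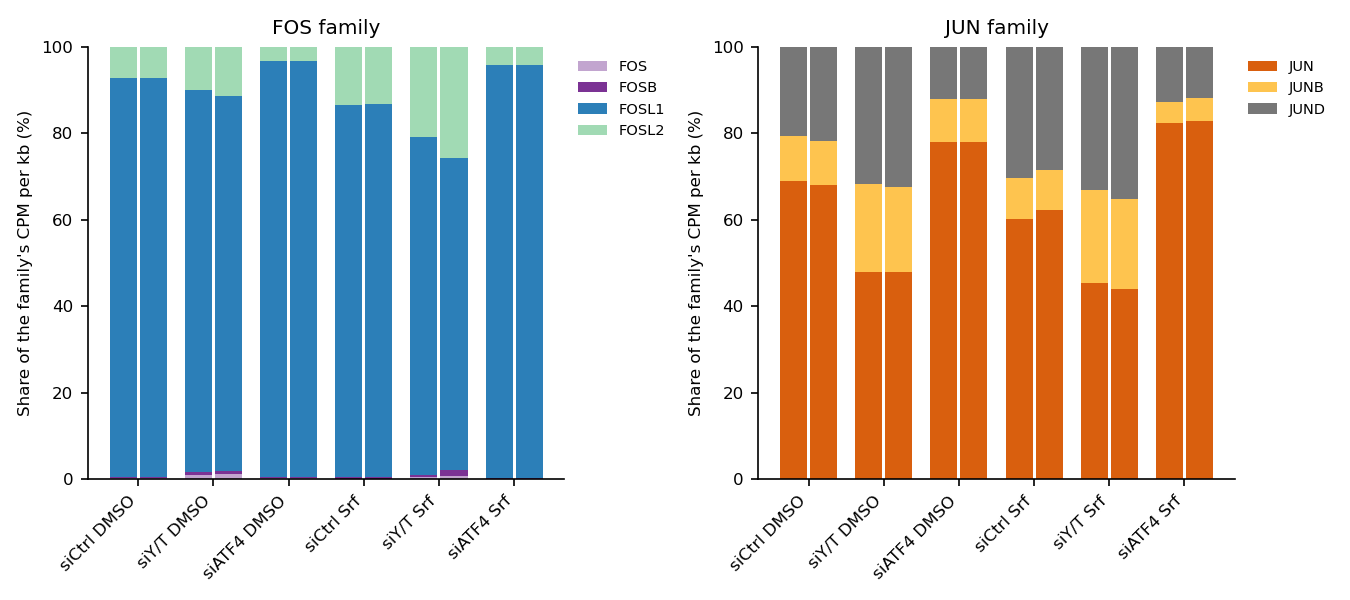
Share of each gene in the summed CPM per kilobase of its family (%, linear axis from 0), 1 bar per library, 2 libraries per group. FOSL1 filled between 72.2% and 96.3% of the FOS family in every library, and JUN filled between 44% and 82.9% of the JUN family, with the smallest shares in siY/T Srf libraries.

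Calls needed both an unadjusted p under 0.05 (two-sided) and a log2 fold change of 0.58 or more in size, from limma on log2(CPM + 0.5), a scale that understates the changes of FOS, FOSB and EGR1 where they are near 1 CPM or below. With siY/T in DMSO, 4 of the 10 genes passed (EGR1, FOS and JUNB rose and FOSL1 fell), beside 14.6% of all genes tested (11.0% higher and 3.61% lower). With siY/T in Sorafenib, 4 passed (EGR1 rose, and JUN, FOSL1 and JUND fell), beside 9.95% of all genes (6.11% higher and 3.84% lower). With siATF4 in DMSO, 6 passed and all 6 rose (FOSL1, FOSB, FOS, MYC, JUN and EGR1), beside 8.57% of all genes called higher, 14.1% called lower and 22.7% called in either direction. With siATF4 in Sorafenib, 5 passed (FOSL1, JUN and MYC rose, and JUND and JUNB fell), beside 28.9% of all genes (10.3% higher and 18.7% lower). The median log2 change of the 10 genes was 0.16 with siY/T in DMSO, -0.22 with siY/T in Sorafenib, 0.75 with siATF4 in DMSO and 0.32 with siATF4 in Sorafenib, where the medians of all genes were 0.07, 0.05, -0.0013 and -0.0082.

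**Figure D2:**
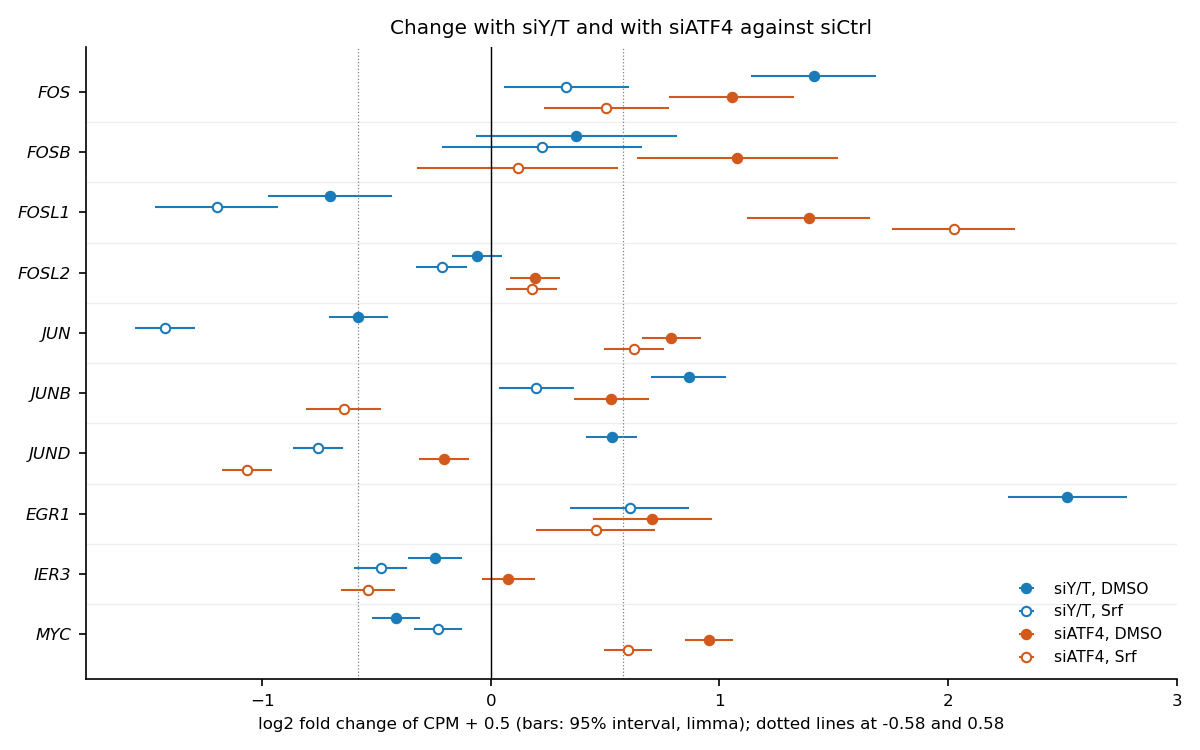
Log2 fold change of each gene against siCtrl (x axis, log2 of CPM + 0.5, bars are 95% intervals from limma) with siY/T (blue) and siATF4 (orange), in DMSO (filled) and Sorafenib (open), 2 libraries per group. FOSL1 and JUN lay left of 0 with siY/T and right of 0 with siATF4 under both treatments, and EGR1 with siY/T in DMSO was farthest from 0, at 2.52.

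With Sorafenib against DMSO, every call among the 10 genes was a fall. In siCtrl cells 4 passed (EGR1, FOSL1, IER3 and FOSB), beside 5.15% of all genes called lower, 12.3% called higher and 17.5% in either direction. In siY/T cells 8 passed, which leaves out FOSL2 and MYC, beside 4.14% of all genes called lower, 5.83% called higher and 9.97% in either direction. In siATF4 cells 6 passed (EGR1, FOSB, IER3, JUNB, FOS and FOSL1), beside 2.95% of all genes called lower, 5.68% called higher and 8.63% in either direction. The median log2 change of the 10 genes was -0.42, -0.87 and -0.87 in siCtrl, siY/T and siATF4 cells, where the medians of all genes were 0.05, 0.04 and 0.03. Comparisons against the same siCtrl or DMSO libraries share those libraries. FOS passed the filter only through siY/T and siATF4 DMSO libraries, and EGR1 only through DMSO libraries. The rises of FOS with both depletions in DMSO, and the falls of FOS and EGR1 with Sorafenib, therefore lie in the direction by which the gene passed. The counts that hold them are to be read with that limit. With no filter on low values these calls did not change, but dropping the filter leaves each log2 change as it was, so this does not remove the limit. Among all genes, quantile normalization moved the share of lower calls by more than 10 percentage points in 5 of these 7 comparisons: from 24.7% to 43.0% for siY/T in DMSO, where DESeq2 gave 35.8%, from 64.6% to 51.5% for siATF4 in Sorafenib, and from 29.5% to 47.7%, 41.5% to 53.1% and 34.2% to 45.3% for Sorafenib in siCtrl, siY/T and siATF4 cells.

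EGR1 (chr5:137801168-137804992 on GRCh37, + strand) encodes a zinc finger factor that is a standard readout of ERK and serum response factor activity. In DMSO, EGR1 was at 5.20 and 5.97 CPM in siCtrl, 35.8 and 33.0 CPM in siY/T and 9.56 and 9.27 CPM in siATF4 libraries. With Sorafenib, EGR1 was at 0.202 and 0.244 CPM in siCtrl, 0.471 and 0.748 CPM in siY/T and 0.493 and 0.492 CPM in siATF4 libraries, which are 10 to 32 reads each. No DMSO library overlapped with a Sorafenib library, and siY/T DMSO stood far above the rest. The mean with siY/T in DMSO was 6.16-fold that of siCtrl, a log2 change of 2.52 ± 0.12 (SE, adjusted p = 5.62e-09). With siATF4 in DMSO the log2 change was 0.71 ± 0.12 (adjusted p = 0.000175). Sorafenib left the mean 25.1-fold lower in siCtrl, 56.5-fold lower in siY/T and 19.1-fold lower in siATF4 cells, with log2 changes of -3.07, -4.99 and -3.32 on the log2(CPM + 0.5) scale and adjusted p of 2.17e-09, 6.44e-11 and 1.55e-09. edgeR on the reads recovered from the CPM, which adds less to low values, gave -4.66, -5.86 and -4.28. In Sorafenib the rise with siY/T was 0.61 ± 0.12 (adjusted p = 0.0011), but it was under 0.58 with a pseudocount of 1 (0.39), with TMM scaling (0.577), without siCtrl Srf replicate 1 (0.565) and without siY/T Srf replicate 2 (0.43), whereas edgeR gave 1.37, past the threshold. The value with siATF4 in Sorafenib was 0.46, with a 95% interval from 0.20 to 0.72, and edgeR, DESeq2, a pseudocount of 0.1 and quantile normalization each put it past 0.58.

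FOS (chr14:75745529-75748933 on GRCh37, + strand), the founding member of its family and also a target of serum response factor, was scarce in every group. In DMSO, FOS was at 0.392 and 0.377 CPM in siCtrl, 1.76 and 1.96 CPM in siY/T and 1.29 and 1.39 CPM in siATF4 libraries. With Sorafenib, FOS was at 0.121 and 0.102 CPM in siCtrl, which are 6 and 5 reads, 0.235 and 0.304 CPM in siY/T and 0.417 and 0.321 CPM in siATF4 libraries. Both depletions in DMSO stood above siCtrl without overlap, and each Sorafenib group stood below the DMSO group of the same siRNA. FOS rose by a log2 of 1.41 ± 0.13 with siY/T in DMSO (adjusted p = 8.44e-07) and by 1.05 ± 0.13 with siATF4 in DMSO (adjusted p = 7.01e-06). It fell with Sorafenib in siY/T cells (log2 change -1.61 ± 0.13, adjusted p = 4.52e-07) and in siATF4 cells (-1.08 ± 0.13, adjusted p = 1.66e-05). In siCtrl cells the value with Sorafenib was -0.53, short of 0.58, where edgeR gave -1.80 and DESeq2 -1.83, both past it. Against siCtrl in Sorafenib, the log2 changes of 0.33 with siY/T and 0.51 with siATF4 were short of 0.58, and edgeR gave 1.19 and 1.72, both past it, as was the siATF4 value without siATF4 Srf replicate 2 (0.59).

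FOSB (chr19:45971253-45978437 on GRCh37, + strand), whose protein pairs with JUN proteins like FOS, lies on the opposite strand over part of ERCC1, a DNA repair gene at 95.3 to 122 CPM as group means, and whether the reads were counted by strand is not stated. In DMSO, FOSB was at 1.40 and 1.53 CPM in siCtrl, 2.56 and 1.62 CPM in siY/T and 3.88 and 3.43 CPM in siATF4 libraries. With Sorafenib, FOSB was at 0.948 and 0.590 CPM in siCtrl, 0.706 and 1.29 CPM in siY/T and 0.891 and 0.835 CPM in siATF4 libraries. Only the siATF4 DMSO libraries stood above all others, and the 2 libraries of siY/T cells lay far apart under each treatment. FOSB rose with siATF4 in DMSO by a log2 of 1.08 ± 0.20 (adjusted p = 0.000381). It fell with Sorafenib in siATF4 cells (-1.61 ± 0.20, adjusted p = 3.29e-05), in siCtrl cells (-0.64 ± 0.20, adjusted p = 0.0139) and in siY/T cells (-0.79 ± 0.20, adjusted p = 0.00536). The fall in siCtrl cells was not called without siCtrl Srf replicate 2 (-0.44) or with a pseudocount of 1 (-0.49), and the fall in siY/T cells was not called without siY/T DMSO replicate 1 (-0.53) or siY/T Srf replicate 1 (-0.51). Against siCtrl, siY/T gave 0.37 in DMSO, with an interval from -0.07 to 0.81 and a value of 0.64 without siY/T DMSO replicate 2, and 0.22 in Sorafenib, from -0.21 to 0.66.

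FOSL1 (chr11:65659520-65668044 on GRCh37, - strand) carried most of the family's RNA and had the widest range after EGR1, 3.89 on the log2 scale between its highest and lowest group means. In DMSO, FOSL1 was at 215 and 199 CPM in siCtrl, 141 and 114 CPM in siY/T and 547 and 539 CPM in siATF4 libraries. With Sorafenib, FOSL1 was at 80.8 and 86.8 CPM in siCtrl, 43.1 and 30.4 CPM in siY/T and 337 and 348 CPM in siATF4 libraries. The order siATF4, siCtrl, siY/T held under both treatments with no overlap. With siATF4 the mean was 2.62-fold that of siCtrl in DMSO (log2 1.39 ± 0.12, adjusted p = 4.76e-07) and 4.09-fold in Sorafenib (2.03 ± 0.12, adjusted p = 9.15e-09). With siY/T it fell by a log2 of 0.70 ± 0.12 in DMSO (adjusted p = 0.000314) and by 1.2 ± 0.12 in Sorafenib (adjusted p = 5.45e-06), the first of which was -0.55, under the threshold, without siY/T DMSO replicate 2. Sorafenib lowered FOSL1 in siCtrl (-1.30 ± 0.12, adjusted p = 1.35e-06), siY/T (-1.80 ± 0.12, adjusted p = 1.7e-07) and siATF4 cells (-0.66 ± 0.12, adjusted p = 0.000699).

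FOSL2 (chr2:28615315-28640184 on GRCh37, + strand), which encodes FRA-2, was not called against siCtrl or with Sorafenib by limma or under any other setting run. In DMSO, FOSL2 was at 65.0 and 61.9 CPM in siCtrl, 63.1 and 58.7 CPM in siY/T and 72.3 and 72.7 CPM in siATF4 libraries. With Sorafenib, FOSL2 was at 50.1 and 51.9 CPM in siCtrl, 45 and 42.8 CPM in siY/T and 57.6 and 58 CPM in siATF4 libraries. Its log2 changes against siCtrl lay between -0.22 and 0.19 and those with Sorafenib between -0.47 and -0.31. These were smaller than the threshold but not all within the spread between replicates, as 6 of the 7 had adjusted p-values under 0.05, such as 8.9e-06 for Sorafenib in siY/T cells.

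JUN (chr1:59242517-59249720 on GRCh37, - strand), which encodes the main DNA-binding partner of the FOS proteins and also pairs with itself, had the third widest range, 2.31 on the log2 scale. In DMSO, JUN was at 224 and 215 CPM in siCtrl, 152 and 141 CPM in siY/T and 369 and 390 CPM in siATF4 libraries. With Sorafenib, JUN was at 195 and 217 CPM in siCtrl, 79.0 and 73.8 CPM in siY/T and 309 and 327 CPM in siATF4 libraries. As with FOSL1, siATF4 stood above siCtrl and siCtrl above siY/T under both treatments. With siY/T in Sorafenib the mean was 2.70-fold lower than in siCtrl (log2 -1.42 ± 0.06, adjusted p = 2.77e-09). In DMSO the change was -0.579 (SE 0.06, adjusted p = 3.28e-06), just short of the threshold, and it passed with TMM scaling (-0.64), edgeR (-0.64) and DESeq2 (-0.66), and without siCtrl DMSO replicate 2 (-0.61) or siY/T DMSO replicate 1 (-0.63). With siATF4, JUN rose by a log2 of 0.79 ± 0.06 in DMSO (adjusted p = 1.02e-07) and by 0.63 ± 0.06 in Sorafenib (adjusted p = 6.54e-07), and the latter was 0.563 with quantile normalization and 0.547 without siCtrl Srf replicate 1. Sorafenib lowered JUN in siY/T cells (-0.94 ± 0.06, adjusted p = 9.03e-08), where in siCtrl cells the value was -0.09, with an interval from -0.22 to 0.04, and in siATF4 cells -0.26, from -0.39 to -0.13.

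JUNB (chr19:12902300-12904129 on GRCh37, + strand), a JUN family protein that activates transcription less strongly than JUN, was highest in siY/T DMSO and lowest in siATF4 Srf cells. In DMSO, JUNB was at 19.0 and 18.3 CPM in siCtrl, 36.1 and 32.7 CPM in siY/T and 26.6 and 27.5 CPM in siATF4 libraries. With Sorafenib, JUNB was at 17.1 and 18.2 CPM in siCtrl, 21.0 and 19.7 CPM in siY/T and 10.4 and 11.9 CPM in siATF4 libraries. The siATF4 libraries stood above siCtrl in DMSO and below it in Sorafenib. JUNB rose with siY/T in DMSO by a log2 of 0.86 ± 0.08 (adjusted p = 7.35e-07) and fell with siATF4 in Sorafenib (-0.64 ± 0.08, adjusted p = 4.91e-06). The latter was -0.546 with quantile normalization and -0.549 without siATF4 Srf replicate 1. Sorafenib lowered it in siATF4 cells (-1.24 ± 0.08, adjusted p = 6.88e-08) and in siY/T cells (-0.74 ± 0.08, adjusted p = 5.3e-06), and gave -0.08 in siCtrl cells, with an interval from -0.24 to 0.09. HOOK2, on the opposite strand and overlapping JUNB, was at 6.10, 12.3 and 4.81 CPM in siCtrl, siY/T and siATF4 cells in DMSO and at 14.5, 17.0 and 6.57 CPM in Sorafenib as means, and its part in the JUNB values was not tested.

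JUND (chr19:18390504-18392432 on GRCh37, - strand), which many cells express constitutively, was the one gene of the 10 with both siCtrl Srf libraries above both siCtrl DMSO libraries. In DMSO, JUND was at 39.7 and 40.6 CPM in siCtrl, 59.7 and 56.6 CPM in siY/T and 33.8 and 35.8 CPM in siATF4 libraries. With Sorafenib, JUND was at 58.2 and 59.0 CPM in siCtrl, 34.1 and 34.9 CPM in siY/T and 28.0 and 27.4 CPM in siATF4 libraries. The siY/T libraries lay above siCtrl in DMSO and below it in Sorafenib. JUND fell with siATF4 in Sorafenib (log2 -1.07 ± 0.05, adjusted p = 8.76e-10) and with siY/T in Sorafenib (-0.76 ± 0.05, adjusted p = 1.25e-07). Its values of 0.53 with siY/T in DMSO and 0.54 with Sorafenib in siCtrl cells were short of 0.58, with intervals from 0.42 to 0.64 and from 0.43 to 0.65. In siY/T cells Sorafenib lowered it (-0.75 ± 0.05, adjusted p = 1.51e-07).

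MYC, a basic helix-loop-helix factor that drives ribosome production and growth with its partner MAX, is an early response gene too. In DMSO, MYC was at 137 and 136 CPM in siCtrl, 105 and 99.0 CPM in siY/T and 257 and 273 CPM in siATF4 libraries. With Sorafenib, MYC was at 132 and 142 CPM in siCtrl, 118 and 116 CPM in siY/T and 205 and 211 CPM in siATF4 libraries. The siATF4 libraries stood above all others under both treatments. With siATF4 the mean was 1.94-fold that of siCtrl in DMSO (log2 0.96 ± 0.05, adjusted p = 2.19e-09) and 1.52-fold in Sorafenib (0.60 ± 0.05, adjusted p = 1.24e-07), and the latter was 0.549 with quantile normalization and 0.55 without siCtrl Srf replicate 1. With siY/T the values were -0.42 in DMSO and -0.23 in Sorafenib, with intervals from -0.52 to -0.31 and from -0.34 to -0.13. Sorafenib gave 0.007 in siCtrl cells, with an interval from -0.10 to 0.11.

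IER3 (chr6:30710976-30712325 on GRCh37, - strand) was little separated by the siRNAs in DMSO and lower with Sorafenib throughout. In DMSO, IER3 was at 177 and 174 CPM in siCtrl, 158 and 138 CPM in siY/T and 187 and 184 CPM in siATF4 libraries. With Sorafenib, IER3 was at 93.7 and 95.5 CPM in siCtrl, 67.4 and 67.8 CPM in siY/T and 65.0 and 65.1 CPM in siATF4 libraries. Every Sorafenib library lay below every DMSO library. Sorafenib lowered IER3 by a log2 of -0.89 ± 0.05 in siCtrl (adjusted p = 3.15e-08), -1.13 ± 0.05 in siY/T (adjusted p = 9.66e-09) and -1.5 ± 0.05 in siATF4 cells (adjusted p = 1.55e-09). Against siCtrl no call was made, and the values in Sorafenib were -0.48 with siY/T and -0.54 with siATF4, with intervals from -0.60 to -0.37 and from -0.65 to -0.42.

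**Figure D3:**
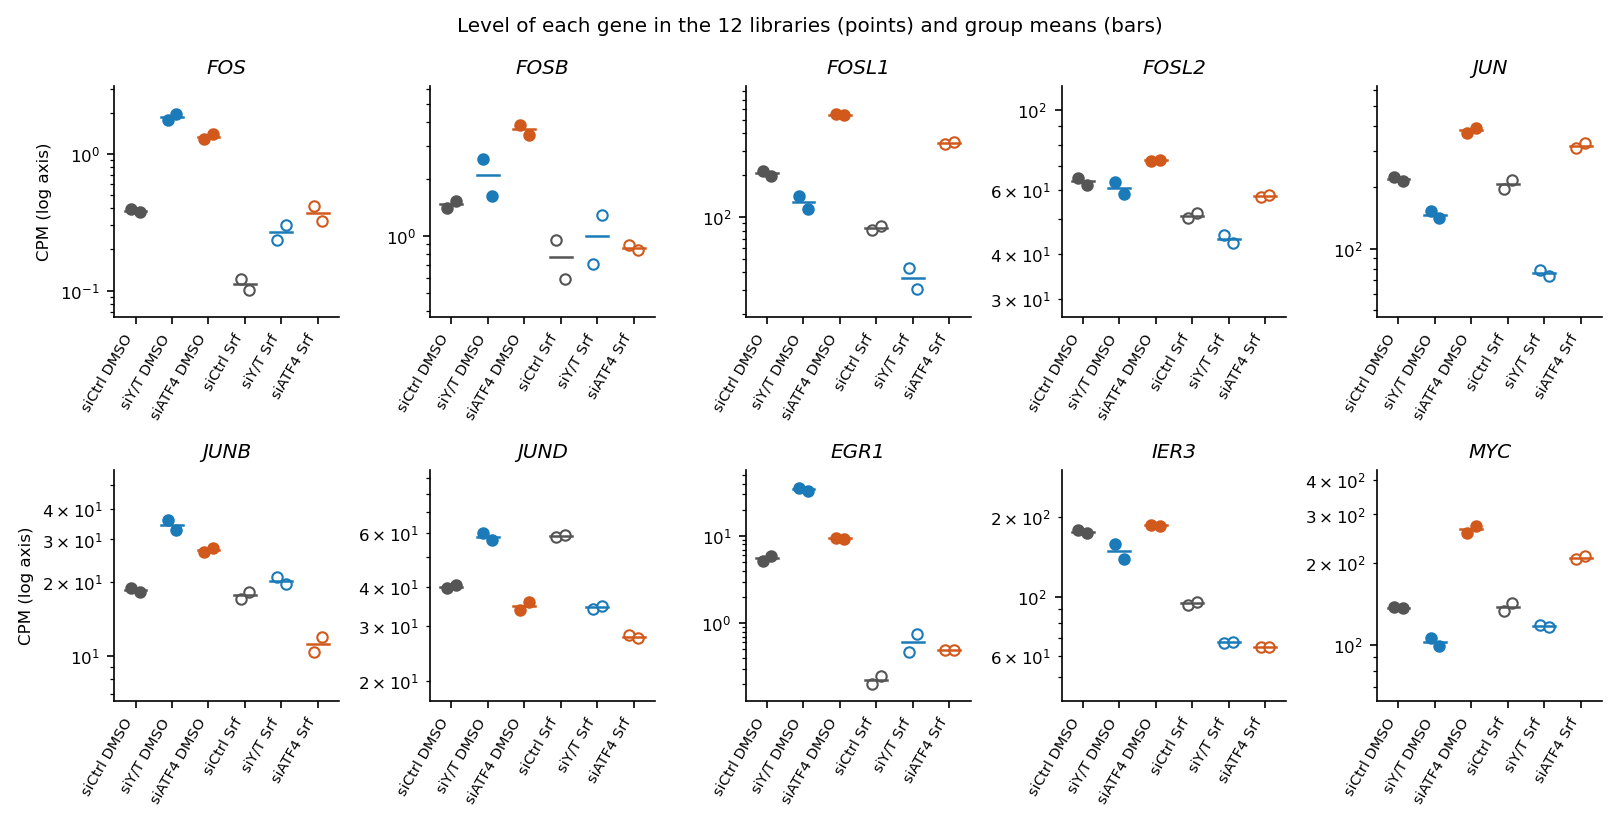
CPM (log axis, a separate range in each panel) of the 10 genes in the 12 libraries, with points for the 2 libraries of a group, short bars for their mean, filled points for DMSO and open points for Sorafenib. EGR1 lay between 5.20 and 35.8 CPM in the DMSO libraries and below 1 CPM in the Sorafenib libraries, while FOSL1 and JUN ran from siATF4 at the top through siCtrl to siY/T under both treatments.

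**Figure D4:**
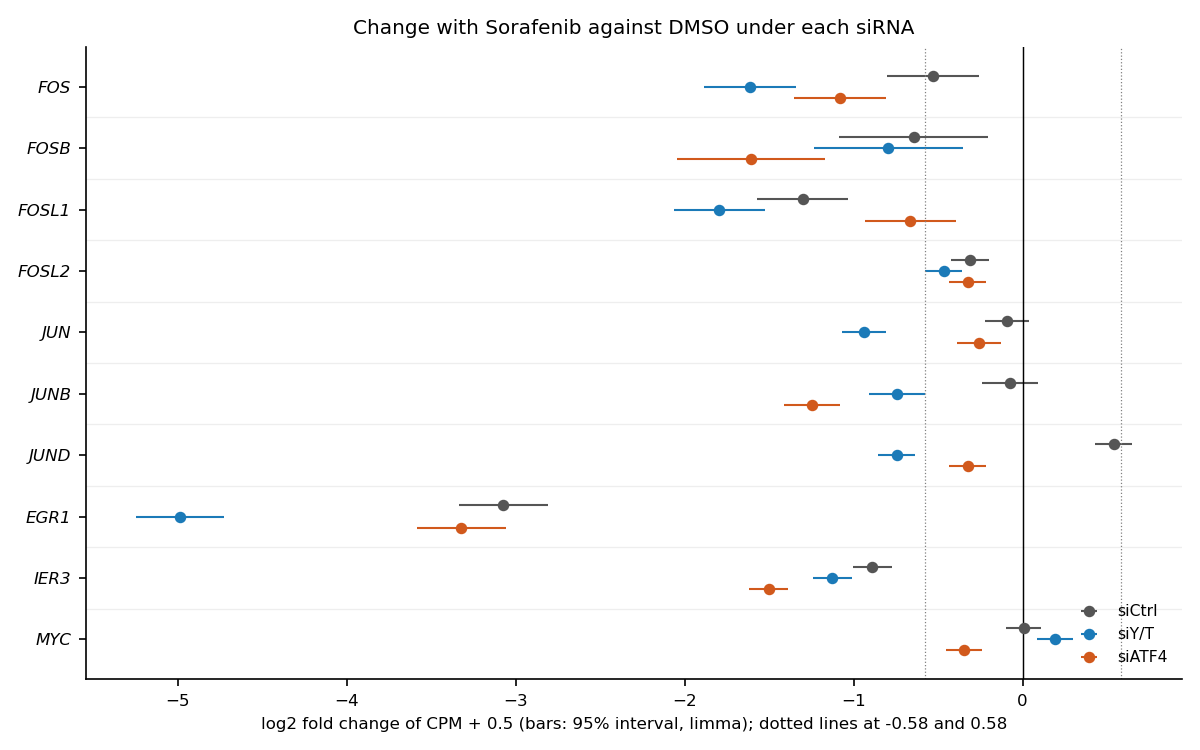
Log2 fold change with Sorafenib against DMSO (x axis, log2 of CPM + 0.5, bars are 95% intervals from limma) in siCtrl (grey), siY/T (blue) and siATF4 cells (orange). EGR1 lay farthest from 0, between -3.07 and -4.99, and JUND was above 0 in siCtrl cells, at 0.54, and below 0 in siY/T and siATF4 cells.

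Set directly against each other, siATF4 cells had more RNA of FOSL1, JUN and MYC than siY/T cells under both treatments. The mean of FOSL1 was 4.26-fold higher in DMSO and 9.32-fold higher in Sorafenib (log2 2.09 ± 0.12 and 3.22 ± 0.12), that of JUN 2.59-fold and 4.16-fold (1.37 ± 0.06 and 2.05 ± 0.06) and that of MYC 2.59-fold and 1.79-fold (1.37 ± 0.05 and 0.83 ± 0.05), with adjusted p of 3.79e-09 or less in all 6. EGR1 was lower in siATF4 than in siY/T cells in DMSO (-1.82 ± 0.12, adjusted p = 1.19e-08), and in Sorafenib the value was -0.15, with an interval from -0.41 to 0.11. In DMSO 6 of the 10 genes passed, beside 35.7% of all genes (13.0% higher and 22.7% lower, with 48.4% of the calls lower by quantile normalization against 63.7%). FOSB was the fourth that was higher (0.70, or 0.44 without siY/T DMSO replicate 2), and JUND was lower (-0.73). In Sorafenib 4 passed, beside 38.5% (14.8% higher and 23.7% lower, with 48.5% of the calls lower by quantile normalization against 61.5%), and JUNB was the one that was lower (-0.84 ± 0.08, adjusted p = 2.38e-07).

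Whether the effect of an siRNA differed between Sorafenib and DMSO was tested for each gene as an interaction, called at an adjusted p under 0.05. For siY/T, 6 of the 10 genes passed and all 6 had the lower effect in Sorafenib. Beside them stood 14.2% of all genes in that direction, 7.81% in the other and 22.0% in either. FOS, counted here and for siATF4 below, passed the filter only through siY/T and siATF4 DMSO libraries. Its lower effects in Sorafenib lie in the direction by which it passed. EGR1, also counted here, passed only through DMSO libraries, and both counts are to be read with that limit. On the log2(CPM + 0.5) scale EGR1 had the widest difference (-1.91 ± 0.17, adjusted p = 3.75e-05), followed by JUND (-1.28 ± 0.07, adjusted p = 1.74e-06). FOS (-1.08 ± 0.18, adjusted p = 0.00141), JUN (-0.85 ± 0.08, adjusted p = 7.68e-05) and JUNB (-0.67 ± 0.11, adjusted p = 0.0012) came next. By edgeR JUND (-1.29) was wider than EGR1 (-1.20). For EGR1, the added 0.5 CPM shrank the fall with Sorafenib more in siCtrl (-3.07, -4.66 by edgeR) than in siY/T cells (-4.99, -5.86 by edgeR). The difference of FOS was about as large by edgeR (-1.0) and DESeq2 (-0.98) but did not pass, and that of IER3 (-0.24 ± 0.08, adjusted p = 0.0415) did not pass in most other settings and passed on leaving out a library only without siY/T DMSO replicate 2. FOSL1, not called at -0.50, passed without siY/T DMSO replicate 2 (-0.65) or siY/T Srf replicate 1 (-0.74), FOSL2 passed without siY/T DMSO replicate 2 (-0.21), and MYC passed without siY/T DMSO replicate 1 (0.23). With quantile normalization FOSL1 passed too (-0.60), and so it did with the replicate number as a block (-0.50). For siATF4, 7 of 10 passed, beside 41.1% of all genes (19.3% higher and 21.8% lower). JUNB (-1.17 ± 0.11, adjusted p = 5.76e-06), JUND (-0.86 ± 0.07, adjusted p = 2.94e-06), IER3 (-0.61 ± 0.08, adjusted p = 5.48e-05) and MYC (-0.35 ± 0.07, adjusted p = 0.00132) had the lower effect in Sorafenib, and FOSL1 the higher (0.64 ± 0.18, adjusted p = 0.0118). FOSB (-0.96 ± 0.29, adjusted p = 0.0174) and FOS (-0.55 ± 0.18, adjusted p = 0.026) passed too, but FOSB was lost without siCtrl Srf replicate 1 (-0.76), siCtrl DMSO replicate 1 (-0.91), siATF4 DMSO replicate 1 (-0.88) or siATF4 Srf replicate 2 (-0.93). FOS came to -0.07 by edgeR and -0.05 by DESeq2, and it was lost on leaving out any library of these 4 groups except siATF4 Srf replicate 1 (-0.47 to -0.59). JUN passed without siCtrl Srf replicate 1 (-0.24). It also passed with quantile normalization (-0.27) and in the fit restricted to the libraries compared (-0.16). For EGR1 and siATF4 the difference was -0.25, with an interval from -0.62 to 0.12, and 0.38 by edgeR, called by neither. With a pseudocount of 1 it was -0.38 and passed.

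The genes around these factors were taken from lists written from general knowledge, and described by counts. Of 12 other dimer partners of AP-1 proteins, 10 were tested. MAFF, a small MAF protein, rose with siATF4 by 2.37 ± 0.10 in DMSO and 2.76 ± 0.10 in Sorafenib and fell with siY/T by 0.88 and 1.08, from 7.65 and 7.41 CPM in siCtrl DMSO. BATF3, a leucine zipper partner of JUN, likewise rose with siATF4 (0.83 and 0.99) and fell with siY/T (-1.01 and -0.95). ATF3, a stress-induced partner, was at 35.8 CPM in both siCtrl Srf libraries and at 12.9 and 12 CPM in siY/T Srf libraries, a fall of 1.49 ± 0.06. ATF3 also fell with siATF4 in Sorafenib (-0.86 ± 0.06), and ATF2 fell with siATF4 in DMSO (-0.74 ± 0.12) and in Sorafenib (-0.85 ± 0.12). In all, 2 rose and 3 fell with siY/T in DMSO, 2 and 5 with siY/T in Sorafenib, 3 and 2 with siATF4 in DMSO and 2 and 4 with siATF4 in Sorafenib, with list medians of -0.31, -0.42, 0.15 and -0.45. Over all genes, the shares that rose and fell in these comparisons were 11.0% and 3.61%, 6.11% and 3.84%, 8.57% and 14.1%, and 10.3% and 18.7%.

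Of 25 other immediate early genes, 20 were tested. With siATF4, 7 rose and 1 fell in DMSO and 6 rose and 2 fell in Sorafenib, with list medians of 0.31 and 0.03, beside 8.57% of all genes that rose and 14.1% that fell in DMSO and 10.3% and 18.7% in Sorafenib. PPP1R15A, which encodes the stress phosphatase subunit GADD34, rose by 2.35 ± 0.06 and 1.89 ± 0.06, IER2 rose by 1.24 ± 0.05 in DMSO, and CCN2, a secreted matricellular factor that is also a standard YAP/TAZ target, rose by 1.71 ± 0.08 and 2.66 ± 0.08. With siY/T, 1 rose and 2 fell in DMSO and 5 fell in Sorafenib, where of all genes, 11.0% rose and 3.61% fell in DMSO and 6.11% and 3.84% in Sorafenib. The 2 that fell in DMSO were CCN1 (-1.92 ± 0.07) and CCN2 (-2.04 ± 0.08), and in Sorafenib DUSP1, a MAP kinase phosphatase, fell by 0.87 ± 0.07 and KLF6 by 0.81 ± 0.05. With Sorafenib in siCtrl cells 2 rose and 5 fell, beside 12.3% and 5.15% of all genes, and TIPARP (-1.44 ± 0.05) and IER2 (-0.88 ± 0.05) were among those that fell.

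Of 18 kinases and factors upstream, 17 were tested. With siATF4, 1 rose and 2 fell under each treatment, beside 8.57% and 14.1% of all genes in DMSO and 10.3% and 18.7% in Sorafenib. With siY/T, 0 passed in DMSO, beside 14.6% of all genes. In Sorafenib 2 rose and 0 fell with siY/T, beside 6.11% and 3.84%. With Sorafenib in siCtrl cells 0 passed, beside 17.5% of all genes. With siATF4 in DMSO and in Sorafenib, ELK3, a ternary complex factor that works with serum response factor, rose (1.26 ± 0.05 and 1.52 ± 0.05), while ELK4 (-0.62 and -0.65) and MAPK3, which encodes ERK1, fell (-1.04 ± 0.06 and -1.12 ± 0.06). With siY/T in Sorafenib RPS6KA5 and RPS6KA3, kinases activated by ERK or p38, rose by 0.76 each.

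Of 20 known AP-1 target genes 16 were tested. With siATF4, 9 rose and 2 fell in DMSO and 8 rose and 3 fell in Sorafenib, with list medians of 0.73 and 0.47. Of all genes, 8.57% rose and 14.1% fell in DMSO and 10.3% and 18.7% in Sorafenib. MMP1, an interstitial collagenase, was at 799 and 748 CPM in siCtrl DMSO and at 6173 and 5446 CPM in siATF4 DMSO libraries, a rise of 2.91 ± 0.12, and it rose by 2.98 ± 0.12 in Sorafenib. HBEGF, a ligand of the EGF receptor, rose by 2.43 ± 0.15 and 2.19 ± 0.15. With siY/T, 3 rose and 6 fell in DMSO and 3 rose and 7 fell in Sorafenib, with list medians of -0.0094 and -0.49, beside 11.0% and 3.61% of all genes in DMSO and 6.11% and 3.84% in Sorafenib. HBEGF fell (-1.80 ± 0.15 and -1.08 ± 0.15), while SPP1 rose (1.14 ± 0.08 and 0.89 ± 0.08). In siCtrl cells Sorafenib raised 2 and lowered 4, beside 12.3% and 5.15% of all genes, and those lowered included MMP1 (-2.06 ± 0.12) and CCND1, which encodes cyclin D1 (-1.31 ± 0.08). Some of these genes, such as CCND1, are also regulated by YAP/TAZ and other factors.

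The MYC network was described in the same way. Of 9 MYC partners tested, the antagonist MXD4 was at 41.6 and 39.7 CPM in siCtrl DMSO and at 83.1 and 78.5 CPM in siCtrl Srf libraries, a rise of 0.98 ± 0.05. It rose with siY/T (1.23 ± 0.05 in DMSO and 0.63 ± 0.05 in Sorafenib) and fell with siATF4 (-0.64 ± 0.05 and -1.88 ± 0.05). Of the 9, 2 rose and 0 fell with siY/T in DMSO, beside 11.0% and 3.61% of all genes. In Sorafenib 1 rose and 0 fell, beside 6.11% and 3.84%. With siATF4 in DMSO 2 rose (MAX, 0.65, and MLX, 0.63) and 2 fell (MXD3, -1.29, and MXD4), beside 8.57% and 14.1%. With siATF4 in Sorafenib 0 rose and 4 fell, beside 10.3% and 18.7%. Sorafenib in siCtrl cells raised 3, MXI1 (1.27) the most, and lowered 0, beside 12.3% and 5.15%. Of 21 MYC target genes tested, mostly factors of ribosome production, 6 rose and 1 fell with siATF4 in DMSO and 14 rose with siATF4 in Sorafenib, with list medians of 0.28 and 0.70, beside 8.57% and 14.1% of all genes that rose and fell in DMSO and 10.3% that rose in Sorafenib. NOLC1 (1.09 ± 0.04) and NOP16 (1.08 ± 0.06) rose most among them in Sorafenib. With siY/T in DMSO 6 fell, among them NPM1 (-0.87 ± 0.04), and with siY/T in Sorafenib 1 fell, TFRC (-0.67 ± 0.07), beside 3.61% and 3.84% of all genes that fell. With Sorafenib in siCtrl cells 9 fell, beside 5.15% of all genes, with a list median of -0.50. In those cells MYC itself was at 137 and 136 CPM in DMSO and 132 and 142 CPM in Sorafenib. In siY/T and in siATF4 cells Sorafenib lowered 1 target gene each, with list medians of -0.22 and -0.23, beside 4.14% and 2.95% of all genes.

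**Figure D5:**
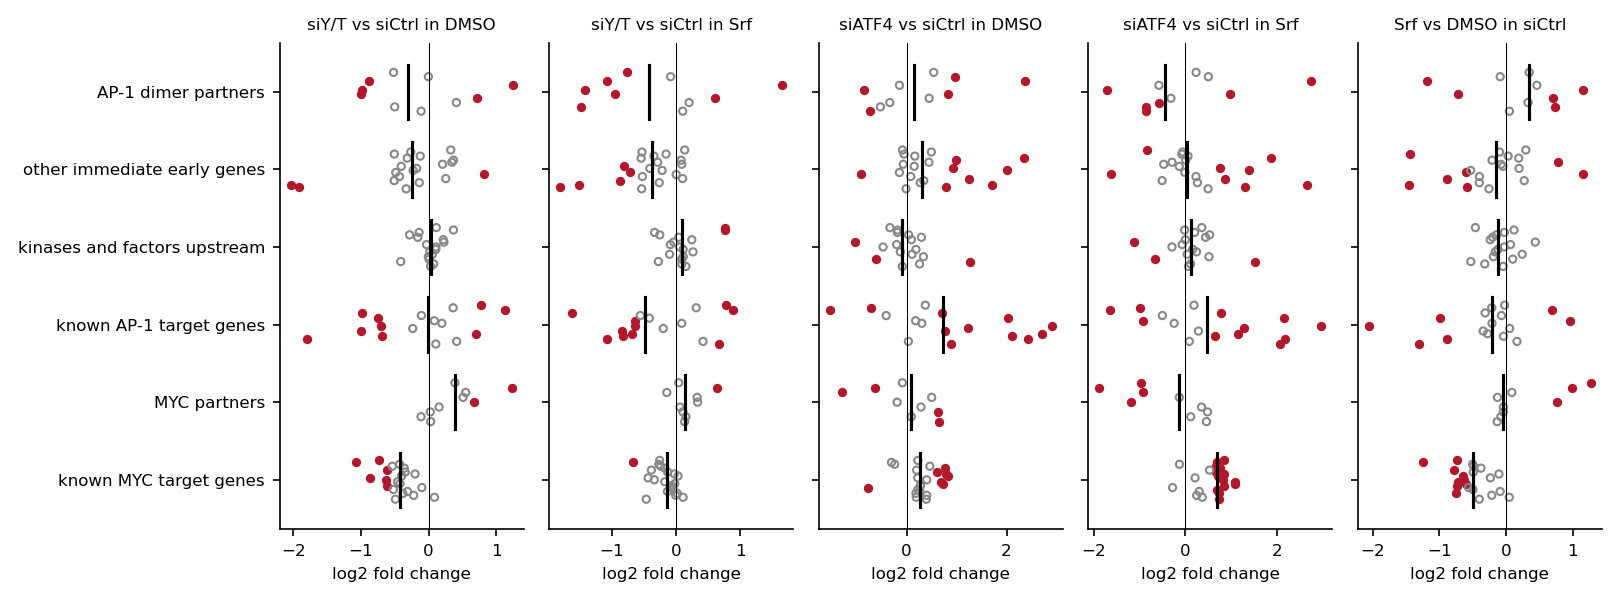
Log2 fold change (x axis) of each tested gene of 6 lists in 5 comparisons, red filled points for called genes, open grey points for the others, black bars for the list medians and a separate range on each axis. With siATF4 the AP-1 target genes reached 2.91 in DMSO and 2.98 in Sorafenib, both for MMP1, and the MYC target genes in Sorafenib had a median of 0.70.

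The 3 genes of widest range were each compared with 11152 genes of at least 5 CPM on average, by Pearson's r of log2(CPM + 0.5) over the 12 libraries. Nearest to EGR1 were C11orf24 (r = 0.979), ZDHHC16 (r = 0.978) and CSRP2 (r = 0.974). Nearest to FOSL1 were NT5DC2 (r = 0.994), TCOF1 (r = 0.992) and POLE4 (r = 0.989). Among the 3 genes nearest to JUN were C19orf25 (r = 0.989) and SOCS2 (r = 0.985). These values are descriptive, since the libraries fall into the 6 groups and are not 12 independent conditions.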

How the data were processed

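RNA-seq was analysed from 12 libraries of HLE cells, 2 in each of 6 groups of siRNA and treatment taken from the sample titles. Per the study's methods, the authors aligned the reads to hg19 with STAR, counted uniquely mapped reads over RefSeq exons and ran their own test with edgeR. They deposited CPM per Entrez identifier, and the strand setting of the counting is not given in the sources used here. Of the deposited CPM values, 100% were whole multiples of 1 read within 0.001 read, so reads were recovered, and libraries held 41408348 to 53619732 of them. The labels give 5 µM Sorafenib and no time, whereas the study's text gives a different dose, with a time, and more replicates per group. The labels were followed, and the conflict was not resolved.

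Names came from a RefSeq table (26111 of 26258 identifiers named) and positions from GENCODE on GRCh37, the build of hg19. Promoter windows were RefSeq's on GRCh38.p14. limma 3.58.1 in R 4.3.3, with a trend and 1 coefficient per group, was fitted to log2(CPM + 0.5) of 13515 genes, those reaching 1 CPM in 2 or more libraries. p-values were adjusted by Benjamini-Hochberg over all of them. The thresholds for pairs of groups follow the study's methods, and interactions were called at an adjusted p under 0.05. The limma fit, edgeR and DESeq2 were tested on simulated reads for 1 comparison, siY/T against siCtrl in DMSO. The other alternatives and the interactions were not tested on simulated reads. The alternatives were pseudocounts of 0.1 and 1, no filter and a filter at 5 CPM, TMM and quantile scaling, the replicate number as a block, fits restricted to the libraries being compared, the recovered reads in edgeR 4.0.16 or DESeq2 1.42.0, adjusted p with a change of at least 0.58 or 1, and leaving out each library.

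Named were the 10 genes, the siRNA targets, the called genes of each list and comparison that averaged 5 CPM or more, up to 4 by size of change, and the 3 genes nearest in profile to each of the 3 members of widest range. A gene that this rule names is not reported here. The overlapping genes and marker genes were named after their values were seen. The members and lists were chosen with earlier results of these data known. Python 3.11.15, pandas 2.3.3 and matplotlib 3.10.9 were used for tables and figures.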

Additional observations from a re-analysis of the deposited data

Results flagged for a closer look

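Listed here are genes for which the effect of an siRNA against siCtrl differed between Sorafenib and DMSO by the interaction term of limma at an adjusted p under 0.05. The values are the effect in Sorafenib minus the effect in DMSO on the log2 scale. For siY/T they were -1.91 for EGR1 (-1.20 by edgeR), -1.08 for FOS, -0.85 for JUN, -0.67 for JUNB, -1.28 for JUND and -0.24 for IER3. For siATF4 they were -0.55 for FOS, -0.96 for FOSB, -1.17 for JUNB, -0.86 for JUND, -0.35 for MYC, 0.64 for FOSL1 and -0.61 for IER3. FOS passed the filter only through siY/T and siATF4 DMSO libraries, and EGR1 only through DMSO libraries. Not all of these differences held in other settings. With siATF4, FOS came to -0.07 by edgeR, and neither FOS (-0.44) nor FOSB (-0.64) passed with quantile normalization. FOSB did not pass with no filter on low values either, and IER3 with siY/T did not pass in most other settings. The signs of the effects themselves differed for JUND with siY/T, at 0.53 in DMSO and -0.76 in Sorafenib, for JUNB with siATF4, at 0.53 and -0.64, and for IER3 with siATF4, at 0.08 (not distinct from 0, with an interval from -0.04 to 0.19) and -0.54. Groups of 2 libraries cannot show an outlying library.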

How the results depend on the processing

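Over 2398 values of the 10 genes under other settings, 2314 kept their side of the threshold and 51 kept the direction and lost the call. Another 33 gained a call, and 0 called values changed sign. Among the 2314 were 24 values, not called in either setting, that changed sign. Many of the 2398 values could hardly move, so these counts do not measure robustness. Of them, 1320 came from leaving out 1 library, which keeps the log2 change where that library lies outside the groups compared. The replicate block, the other filters and fits restricted to the libraries compared also keep the log2 change and can alter only the p-value. With calls restricted to a change of 1 or more at an adjusted p under 0.05, fewer of the 10 genes passed, since a larger change was asked for. For siY/T 2 passed in DMSO, beside 419 of all 13515 genes called higher and 110 lower, and 2 in Sorafenib, beside 233 and 150. For siATF4 3 passed in DMSO (beside 277 and 764) and 2 in Sorafenib (295 and 1189). For Sorafenib 2 passed in siCtrl (394 and 103) and 4 in siY/T cells (105 and 86). In siATF4 cells FOS, FOSB, JUNB, EGR1 and IER3 passed with Sorafenib (154 and 94). For siATF4 against siY/T, FOSL1, JUN, EGR1 and MYC passed in DMSO (541 and 1613) and 2 genes in Sorafenib (682 and 1762). Leaving out 1 library in turn gave 3 to 6 genes for siATF4 in Sorafenib, the lowest without siCtrl Srf replicate 1. The lone library left in a group was then assumed to vary like the others. A filter at 5 CPM leaves out FOS and FOSB, which have no value under it.

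The correlation of same-numbered deviations over 15 pairs of groups ran from -0.28 to 0.19, with 4 over 0.1. Between groups of the same treatment it was weak but positive, at 0.193, 0.036 and 0.098 in DMSO and 0.100, 0.164 and 0.118 in Sorafenib. Across treatments it ran from -0.28 to 0.005. The labels do not say whether same-numbered libraries were handled together. The replicate block fits 1 shift between replicate numbers for all groups, so it cannot take up a shift that differs between treatments. With the replicate block 1 of 110 values changed its call, the interaction of FOSL1 with siY/T (-0.50), which then passed, and the number of the 10 genes with a called siY/T interaction went from 6 to 7.

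Quantile normalization shifted the median of all genes by 0.12 in siATF4 against siY/T, under both treatments, and no other scaling moved a median by more than 0.1. Over all genes, edgeR on the recovered reads called 1499 higher and 739 lower for siY/T in DMSO, where limma called 1485 and 488, quantile normalization 1044 and 789 and DESeq2 1385 and 771. For siY/T in Sorafenib edgeR called 832 and 774, for siATF4 1358 and 2143 in DMSO and 1596 and 2696 in Sorafenib, and for Sorafenib 1807 and 890 in siCtrl, 893 and 754 in siY/T and 987 and 549 in siATF4 cells. For the siY/T interaction, fitting only the libraries compared called 652 and 1557, against 1055 and 1923. Asking for a change of 1 or more at an adjusted p under 0.05 left 419 and 110 for siY/T in DMSO, 233 and 150 in Sorafenib (from 826 and 519), 277 and 764 for siATF4 in DMSO (from 1158 and 1910), 295 and 1189 in Sorafenib (from 1386 and 2525), 394 and 103 for Sorafenib in siCtrl (from 1665 and 696), 105 and 86 in siY/T (from 788 and 560) and 154 and 94 in siATF4 cells (from 768 and 399), and 541 and 1613 for siATF4 against siY/T in DMSO (from 1754 and 3074) and 682 and 1762 in Sorafenib (from 2005 and 3205). Depth limits FOS, FOSB and EGR1 in Sorafenib, where single libraries held as few as 5 reads of FOS.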
